A study of Mus musculus with 24 samples.

Results

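The long intergenic noncoding RNAs (lincRNAs) of splenic NK cells were taken as the genes that the deposited table gives the biotype lincRNA and that reached a mean of 5 CPM or more, where CPM is the raw count scaled to the total count of the library, averaged over all 24 libraries. This rule selected 100 genes of 4670 lincRNA genes and of 45237 genes in the table. Because the rule used these same libraries, the abundance of the 100 genes is a description and not a finding. The members nearest to the threshold were Gm20707 at 5.01 CPM, D730003I15Rik at 5.02 CPM and Gm26517 at 5.03 CPM, and the lincRNAs nearest below it were 2900076A07Rik at 4.93 CPM, E230001N04Rik at 4.90 CPM and Gm10451 at 4.79 CPM.

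NK cells came from the spleens of WT C57BL/6J mice and were purified by cell sorting. The mice were either tumor-free controls (n = 4 libraries) or mice given tumor cells intravenously. RMA is a T cell lymphoma line. RMA-KR is a cloned derivative of it in which B2m, the light chain of MHC class I, was knocked out. RMA-KR also expresses Rae1-β, a ligand of the activating receptor NKG2D. Per the paper, both lines express the fluorescent protein ZsGreen. NK cells from RMA-bearing mice were sequenced at day 2 (early, n = 3), day 4 (intermediate, n = 3) and day 9 (late, n = 3), and those from RMA-KR-bearing mice at day 2 (early, n = 3), day 7 (intermediate, n = 5) and day 14 (late, n = 3). At the intermediate and late stages the tumors therefore differ in both the line and the day, and these cannot be told apart. The labels number the libraries of a group without naming animals, so that p-values measure the spread between these libraries.

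LincRNAs are transcripts of their own genes that are not known to code for protein, usually capped, spliced and polyadenylated like mRNA but often kept in the nucleus. Some build nuclear bodies, some silence or activate genes on the chromosome they come from, and others are mainly the precursors of microRNAs or small nucleolar RNAs. In lymphocytes several are known for changing with activation and proliferation, among them Malat1, Neat1, Mir155hg, Morrbid and Pvt1.

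The members spanned a wide range of abundance. Their mean level ran from 5.01 CPM to 3332 CPM with a median of 11.5 CPM, 43 of the 100 members were under 10 CPM, and 9 were at 100 CPM or more. Gm26917 (chr17:39843013-39846341 on mm10), which lies in a region known for sequence resembling ribosomal RNA, and AW112010 (chr19:11047612-11055808), an RNA known to be induced in activated immune cells, together held 60.4% of all reads counted on members. Per kilobase of exon, AW112010 was the most abundant with 3556 CPM per kb, followed by Gm26917 with 1001 CPM per kb, Gm28875 with 582 CPM per kb, Malat1 with 90.6 CPM per kb and Gm2682 with 83.5 CPM per kb. All 100 members passed the filter on low counts, and 81 had at least 1 count in each of the 24 libraries.

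**Figure D1:**
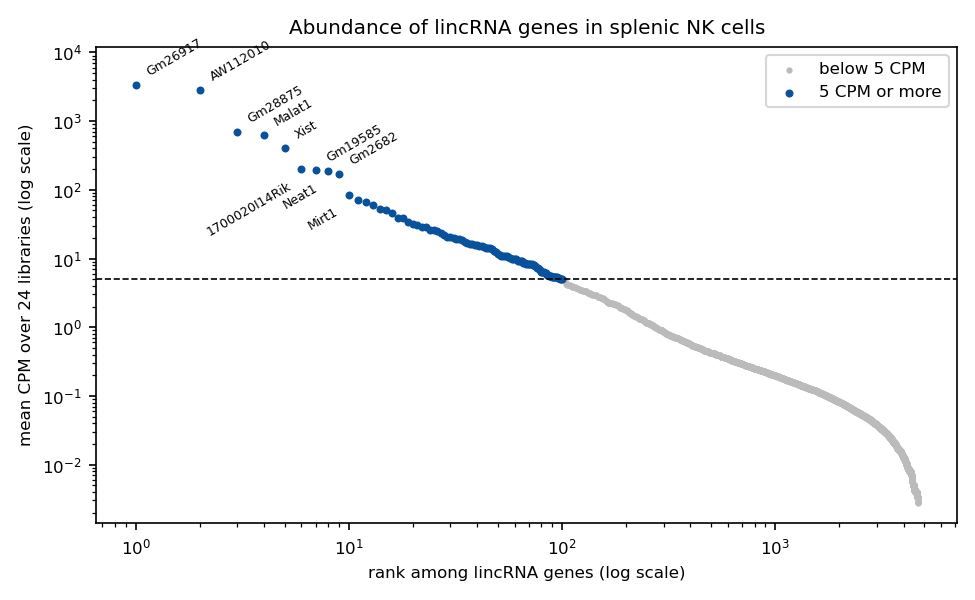
Mean CPM over 24 libraries (log scale) of the 4670 lincRNA genes against their rank (log scale), with the 100 members in blue, the other lincRNA genes in gray and the threshold of 5 CPM as a dashed line. The 10 most abundant are named, from Gm26917 at 3332 CPM down to Mirt1 at 84.0 CPM.

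Neat1 and Malat1, the members with the smallest p over the 7 groups, are neighbors on chromosome 19, with Neat1 at chr19:5824708-5845478 and Malat1 at chr19:5795690-5802672, both on the minus strand. Neat1 is the RNA around which paraspeckles assemble, and Malat1 is an abundant RNA of nuclear speckles. Malat1 and the long form of Neat1 are known to end in a triple helix in which an A-rich tract encoded in the genome pairs with U-rich stretches, in place of a poly(A) tail. The 100 bases up to the end of this tract are shown 5′ to 3′ from GENCODE transcripts on GRCm38, with the T-rich stretches and the A-rich tract in capitals, because the libraries were made from poly(A) RNA and these ends carry no poly(A) tail (Malat1 at chr19:5795982-5796081, Neat1 at chr19:5824708-5824807).
Malat1: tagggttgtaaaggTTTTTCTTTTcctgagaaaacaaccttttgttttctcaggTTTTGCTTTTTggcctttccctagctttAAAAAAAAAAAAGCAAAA
Neat1: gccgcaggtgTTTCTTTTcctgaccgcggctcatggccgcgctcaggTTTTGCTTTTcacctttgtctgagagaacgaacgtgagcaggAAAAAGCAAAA

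Among the members, 7 hold microRNAs on their own strand, with 27 mature microRNAs in all. The main arms of the hosts described here are printed from RefSeq (GRCm38.p6) with the seed (bases 2 to 8) in capitals, grouped by host, because the counts measure the host transcript and not these products. Mir142hg carries miR-142a, which is restricted to blood cells, Mir155hg carries miR-155, which is known to be induced by lymphocyte activation, and Mir17hg carries a cluster known for its part in proliferation.
miR-142a-5p: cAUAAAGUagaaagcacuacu
miR-142a-3p: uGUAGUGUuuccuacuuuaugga
miR-155-5p: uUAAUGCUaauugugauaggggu
miR-17-5p: cAAAGUGCuuacagugcagguag
miR-20a-5p: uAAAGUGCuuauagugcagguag
miR-18a-5p: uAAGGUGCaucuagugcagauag
miR-19a-3p: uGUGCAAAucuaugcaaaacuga
miR-19b-3p: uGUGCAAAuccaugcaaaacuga
miR-92a-3p: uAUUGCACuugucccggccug
Within the Mir17hg cluster, miR-17 and miR-20a share the seed AAAGUGC, and miR-19a and miR-19b share the seed GUGCAAA. The member 6720427I07Rik (chr13:48532905-48546500, minus strand) holds let-7d, let-7f and let-7a, which all share the seed GAGGUAG, and Snhg20 holds miR-6516.
let-7d-5p: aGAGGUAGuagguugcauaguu
let-7f-5p: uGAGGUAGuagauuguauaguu
let-7a-5p: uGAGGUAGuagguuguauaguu
miR-6516-5p: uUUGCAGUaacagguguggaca

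Promoters of 51 members were found in RefSeq. Those of Malat1 and Mirt1 are shown (GRCm38.p6, minus strand, 250 bases before to 50 after the start) because these members fell together below. Searched on both strands for the AP-1 letters TGANTCA, which do not overlap the other motifs searched, the Mirt1 promoter holds a match (in capitals) and the Malat1 promoter holds none. Those of 4833407H14Rik, Snhg20 and 1810006J02Rik, which also fell below, hold none. AP-1 matches occurred in 7 of the 62 promoters of members (11.3%) and in 7.81% of all promoters of this length. Of the other motifs searched, the CCAAT box (letters CCAAT) was in 50% of member promoters and 37.4% of all. The GC box (letters GGGCGG) was in 21% and 35.6%. The Malat1 window is chr19:5802623-5802922 and the Mirt1 window is chr19:53464747-53465046.
Malat1 promoter: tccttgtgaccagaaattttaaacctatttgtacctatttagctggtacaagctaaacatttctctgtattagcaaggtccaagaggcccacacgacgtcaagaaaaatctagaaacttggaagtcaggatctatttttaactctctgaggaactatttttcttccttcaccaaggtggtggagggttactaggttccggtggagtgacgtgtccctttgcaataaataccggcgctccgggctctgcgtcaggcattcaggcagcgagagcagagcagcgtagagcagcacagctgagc
Mirt1 promoter: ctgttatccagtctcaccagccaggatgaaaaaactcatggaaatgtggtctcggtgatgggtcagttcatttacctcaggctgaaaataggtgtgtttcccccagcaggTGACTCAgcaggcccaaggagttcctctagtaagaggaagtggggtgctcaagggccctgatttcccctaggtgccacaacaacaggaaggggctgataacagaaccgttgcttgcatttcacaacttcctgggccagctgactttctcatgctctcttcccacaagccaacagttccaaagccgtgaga

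Before the comparisons, 4 libraries stood apart. The summed level of 14 immediate early genes such as Fos and Jun was 1602 normalized CPM in control 4 and between 1446 and 1573 in RMA-KR intermediate 3, 4 and 5, against 5026 to 11201 in the other 20 libraries. The 6 lowest of these 20 were those of RMA intermediate and RMA late (5026 to 6557), and the other 14 were at 7185 or more. Members differed between the libraries of this RMA-KR group as well. In libraries 3 to 5, 14 members lay above and 31 below both libraries 1 and 2, where 21.2% and 12.8% of all genes tested did. The calls were therefore also made without all 4. Total counts ran from 5138651 to 14863500 per library, and members took 0.713% to 1.45% of them. The 12 NK cell markers were all detected in each group, with a summed level of 20777 to 41913 normalized CPM per library. The summed level was 281 to 594 for 10 T cell markers, 213 to 583 for 8 B cell markers, 238 to 542 for 5 plasma cell markers, 3.19 to 79.6 for 8 macrophage and monocyte markers, 0 to 11.7 for 6 granulocyte markers and 0 to 3.69 for 6 red blood cell markers.

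A test over all 7 groups asked which members differed anywhere. It called 7 members at an adjusted p under 0.05 (edgeR's quasi-likelihood test), where 5.69% of all 17097 genes tested and 9.95% of the 9478 tested genes that also reached 5 CPM were called, beside 7% of the members. In what follows, edgeR without a named setting is this fit over all 24 libraries. DESeq2 with default settings called 29 members, beside 15.1% of all genes tested and 24.9% of those at 5 CPM or more. In edgeR with at least 10 counts in every library, 18 of 61 members (29.5%) were called, beside 18.4% of all genes tested and of those at 5 CPM or more. The 7 called over all 24 libraries were Neat1 (adjusted p = 0.000406), Malat1 (0.000407), Gm2682 (0.00135), Mirt1 (0.00215), 4833407H14Rik (0.0140), C530050E15Rik (0.0199) and Gm26623 (0.0249). The next in order, AC157548.1 (0.0536), Gm26546 (0.0593) and Tmem250-ps (0.0746), did not pass. Of the 7, 6 were also called without the 4 libraries that stood apart, and C530050E15Rik was not.

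Neat1, called over the 7 groups, was low at the later stages. Its level in controls was 398, 156, 190.0 and 342 normalized CPM (CPM with the library total scaled by TMM, the trimmed mean of M-values). At the early stage it was 657, 361 and 342 in RMA and 341, 246 and 220.2 in RMA-KR. At the intermediate stage it was 50.2, 59.3 and 45.2 in RMA and 82.2, 64.1, 137, 134 and 174 in RMA-KR. All RMA intermediate libraries lay below all controls, whereas RMA-KR intermediate 5 lay above the lowest control. At the late stage Neat1 was at 33.4, 42.8 and 107 in RMA and at 71.1, 31.5 and 130.4 in RMA-KR, and every late library lay below every control. Neat1 was thus 5.26-fold lower in RMA intermediate NK cells than in controls (log2 fold change -2.40 ± 0.47 SE, adjusted p = 0.00622) and 4.44-fold lower in RMA late (-2.15 ± 0.47, adjusted p = 0.0110). The RMA-KR late difference was -1.81 ± 0.46 and missed the threshold with edgeR (adjusted p = 0.0532), and that of RMA-KR intermediate was -1.20 ± 0.38 (adjusted p = 0.597). The first was called by DESeq2 under either setting and by edgeR with at least 10 counts in every library, and both by edgeR without a filter. Over 9 other settings the RMA-KR intermediate difference ran from -1.77 to -1. In these bulk samples fewer cells with Neat1 and less Neat1 per cell cannot be told apart. A difference in Neat1 between RMA and RMA-KR did not pass at the intermediate (-1.20 ± 0.44, adjusted p = 0.297) or late stage (-0.34 ± 0.47, adjusted p = 0.903), though without a filter edgeR called the first of these. Over 9 other settings the first ran from -1.24 to -0.495. Without the libraries that stood apart, the RMA-KR intermediate mean was 73.2 (libraries 1 and 2 only), beside 51.5 in RMA intermediate. The call in RMA intermediate held in 7 of 7 fits that left out a library. The call in RMA late was lost without RMA late 1 or RMA late 2 (adjusted p up to 0.114). With 1 library left out, the RMA late log2 fold change ran from -2.83 to -1.85.

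Malat1 was low there too. Controls were spread widely, at 1433, 419.6, 806 and 418 normalized CPM. The early libraries were at 1806, 1389 and 1228 in RMA and at 1478, 1052 and 1149 in RMA-KR, within the upper part of the controls' range or above it. The intermediate libraries were at 188, 308 and 122 in RMA and at 275, 485, 235, 300.3 and 193 in RMA-KR, where library 2 of RMA-KR lay above the lowest controls. The late libraries were at 145, 229 and 370.3 in RMA and at 360.3, 113 and 411 in RMA-KR, all below every control. Malat1 fell 3.73-fold in RMA intermediate NK cells (log2 fold change -1.90 ± 0.46, adjusted p = 0.0262, edgeR). The differences of -1.63 ± 0.46 in RMA late (adjusted p = 0.0562), -1.37 ± 0.38 in RMA-KR intermediate (adjusted p = 0.497) and -1.38 ± 0.45 in RMA-KR late (adjusted p = 0.169) did not pass with edgeR and were called by DESeq2 under either setting and by edgeR without a filter on low counts. The call in RMA intermediate was lost without control 1, control 3, RMA intermediate 1 or RMA intermediate 3 (adjusted p up to 0.184), and held under 7 of 9 other settings. Those that lost it were a replicate block and only the libraries compared (adjusted p up to 0.0975, edgeR).

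**Figure D2:**
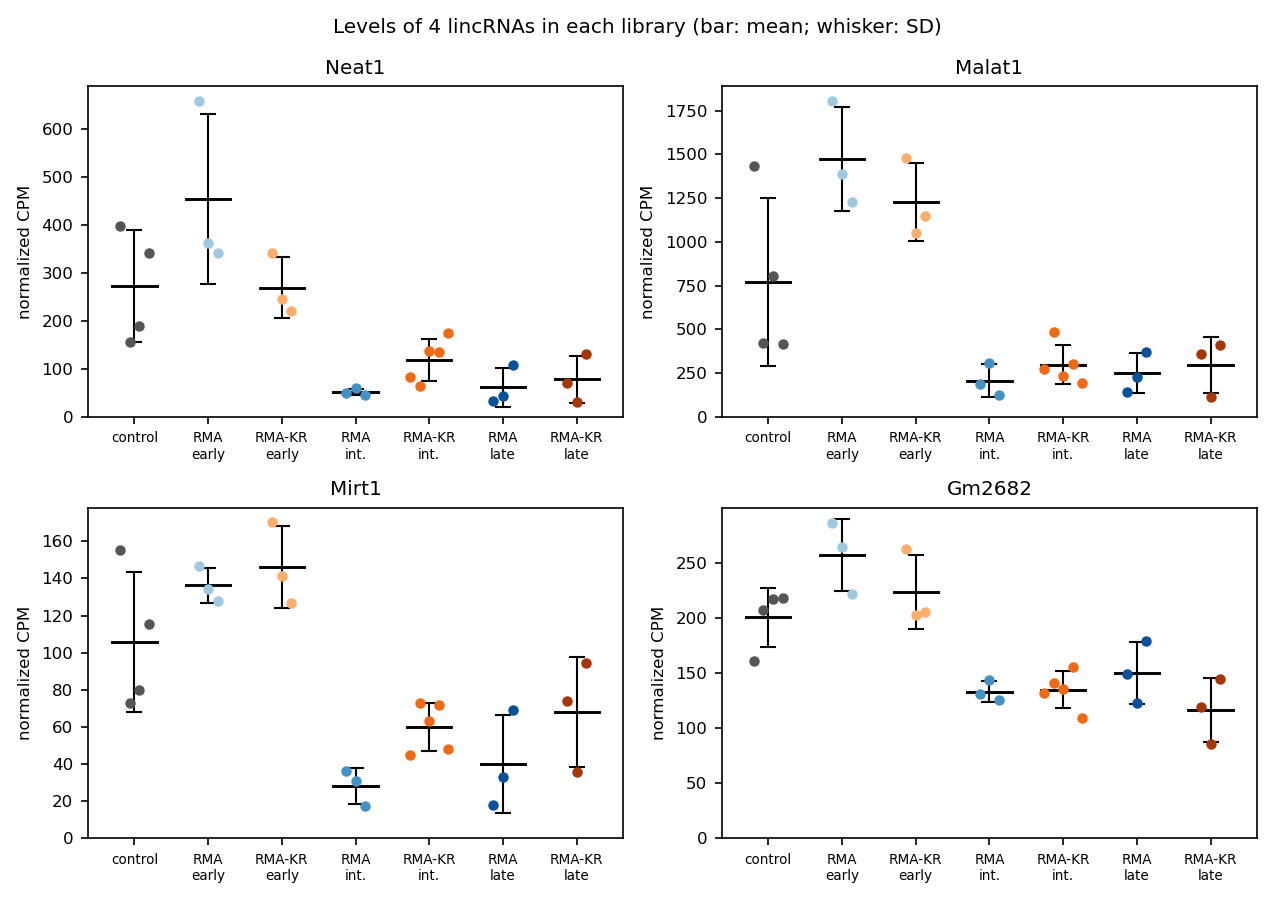
Normalized CPM of Neat1, Malat1, Mirt1 and Gm2682 (vertical axes, from 0) in each library of the 7 groups (horizontal axes), with points as libraries, bars as means and whiskers as SD. In Neat1 the 3 RMA intermediate libraries sit between 45.2 and 59.3, below all 4 controls, and in all 4 panels the early groups are not below the controls on average, except for Neat1 in RMA-KR early (mean 269 against 272).

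The genes for proteins of these nuclear bodies were set beside them. Of 16 paraspeckle protein genes, among them Sfpq and Nono, 0 were called by edgeR in any of the 9 comparisons between groups. Their median log2 fold change in RMA intermediate was 0.20, beside -0.29 over all genes tested and -0.02 over those at 5 CPM or more. Of 18 nuclear speckle protein genes, 2 fell in RMA intermediate, where 0.386% of all genes tested and 0.696% of those at 5 CPM or more were called lower. These were Srsf5, a splicing factor (-1.10 ± 0.19, adjusted p = 0.00258), and Clk1, a kinase of splicing factors (-1.25 ± 0.28, adjusted p = 0.0162). The median of the 18 was -0.36. Ddx39b, an RNA helicase, differed the other way by less than 2-fold (0.77 ± 0.19, adjusted p = 0.0249). Of 17 genes of nuclear RNA decay tested, 0 were called in RMA intermediate. In RMA late 1 rose, the exosome subunit Exosc8, where 1.42% of all genes tested were called higher. Frmd8, the nearest coding gene to Neat1 at 4224 bases, was at 0.21 ± 0.19 in RMA intermediate (adjusted p = 0.614).

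Mirt1, a lincRNA named for its rise after myocardial infarction, and 4833407H14Rik overlap on opposite strands of chromosome 19, at chr19:53443230-53464796 (minus) and chr19:53460622-53462723 (plus), with 1008 shared exon bases. The strand setting of the counting is not given in the sources used here, so reads from these genes cannot be told apart in the shared stretch. Mirt1 was at 155, 73.1, 79.8 and 116 normalized CPM in controls, at 36.2, 31.1 and 17.5 in RMA intermediate and at 17.9, 33.0 and 69.2 in RMA late. It was at 44.9, 72.7, 63.3, 71.7 and 48.3 in RMA-KR intermediate and at 73.9, 36.0 and 94.2 in RMA-KR late. Both later RMA groups and RMA-KR intermediate lay below all controls, and RMA-KR late overlapped them. Mirt1 fell 3.74-fold in RMA intermediate (-1.90 ± 0.39, adjusted p = 0.00824) and 2.65-fold in RMA late (-1.41 ± 0.38, adjusted p = 0.0496). The call in RMA intermediate was lost without RMA intermediate 3 (adjusted p = 0.0767). The call in RMA late lay at the threshold, held under 4 of 9 other settings and was lost without the 4 libraries that stood apart and without control 1, 3 or 4 or RMA late 1 or 2 (adjusted p up to 0.317). It was lost with a replicate block as well. With 1 library left out, the RMA late log2 fold change ran from -2.06 to -1.05.

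4833407H14Rik was at 28.2, 21.3, 30.8 and 17.6 normalized CPM in controls and at 7.66, 11.3 and 6.86 in RMA intermediate, with no overlap. It was at 10.2, 11.9 and 9.22 in RMA late and at 18.8, 30.3, 13.5, 16.3 and 18.5 in RMA-KR intermediate. The RMA intermediate difference passed (-1.50 ± 0.37, adjusted p = 0.0294) and the RMA late difference did not with edgeR (-1.23 ± 0.37, adjusted p = 0.0825), while DESeq2 under either setting and edgeR with at least 10 counts in every library called it. The call was lost without a filter on low counts (adjusted p = 0.326) and held in 2 of 7 fits that left out a library, those without control 2 and without control 4. Dusp5, the nearest coding gene to it at 66386 bases, was at -0.42 ± 0.40 in RMA intermediate (adjusted p = 0.642). Smndc1, 52652 bases from Mirt1, was at -0.31 ± 0.26 (adjusted p = 0.578).

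Gm2682 (chr15:60120540-60187408) had smaller differences with less spread. Controls were at 161, 207, 217 and 218 normalized CPM, and the early libraries at 286, 264 and 222 in RMA and 262, 203 and 205 in RMA-KR. The intermediate libraries were at 130.5, 143 and 125 in RMA and at 132, 141, 136, 155 and 109 in RMA-KR, all below every control. The late libraries were at 149, 122 and 179 in RMA and at 119, 85.7 and 144 in RMA-KR, and RMA late 3 was above the lowest control. Against controls, RMA-KR late had an adjusted p of 0.0356 (-0.79 ± 0.19), but the change was under 2-fold and so was not called. RMA intermediate was at -0.59 ± 0.19 (adjusted p = 0.105) and RMA-KR intermediate at -0.58 ± 0.16 (adjusted p = 0.497).

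Another pair of members fell in RMA intermediate. Snhg20 (chr11:117076008-117078955), a snoRNA host by name that also spans miR-6516, was at 20.1, 16.8, 28.6 and 27.6 normalized CPM in controls and at 5.90, 7.92 and 6.17 in RMA intermediate (-1.80 ± 0.45, adjusted p = 0.0317). 1810006J02Rik (chr1:98131456-98144655) was at 27.5, 37.8, 28.4 and 22.7 in controls and at 5.28, 14.5 and 10.9 in RMA intermediate (-1.51 ± 0.38, adjusted p = 0.0306). Neither group overlapped the controls. In RMA-KR intermediate, Snhg20 was at 12.2, 13.2, 14.8, 33.7 and 26.8 and 1810006J02Rik at 29.98, 38.2, 24.1, 20.5 and 21.4, overlapping controls. The differences between RMA and RMA-KR at this stage, -1.59 ± 0.44 for Snhg20 (adjusted p = 0.114) and -1.40 ± 0.36 for 1810006J02Rik (adjusted p = 0.0896), did not pass with edgeR and were called by DESeq2 under either setting and by edgeR with at least 10 counts in every library. Neither fall against controls was called without the 4 libraries that stood apart, or without a filter on low counts (adjusted p = 0.175 for Snhg20 and 0.240 for 1810006J02Rik). The call of Snhg20 was also lost with a replicate block. Leaving out a library kept the call of Snhg20 in 1 of 7 fits (without control 2) and that of 1810006J02Rik in 2 of 7 (without control 4 or RMA intermediate 2).

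C530050E15Rik, which lies within the span of Ripor2 on the opposite strand, was called by edgeR over the 7 groups but in no single comparison. It was at 33.2, 9.53, 19.4 and 13.5 normalized CPM in controls, at 66.0, 16.4 and 34.7 in RMA early and at 2.66, 3.34 and 3.88 in RMA late. RMA-KR intermediate libraries were at 6.51, 7.36, 5.03, 1.02 and 0.783, below all controls (-2.18 ± 0.71, adjusted p = 0.664). RMA late was below them too (-2.52 ± 0.87, adjusted p = 0.148). In RMA late it was called under 4 of 8 other settings, both DESeq2 settings and edgeR without a filter or with only the libraries compared, and in RMA-KR intermediate by edgeR without a filter. The call over the 7 groups was lost without RMA early 1, RMA late 1 or RMA late 2.

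Gm26623 (chr12:83620210-83621174), which overlaps the pseudogene Gm6722 on the opposite strand, was the member called higher. It was at 24.9, 46.6, 41.3 and 31.4 normalized CPM in controls and at 94.4, 95.7 and 57.5 in RMA late, with no overlap (1.20 ± 0.29, adjusted p = 0.0233). RMA intermediate was also above controls, at 63.1, 51.6 and 60.8 (0.70 ± 0.29, adjusted p = 0.265). RMA-KR late was at 58.5, 60.3 and 42.0 (0.57 ± 0.29, adjusted p = 0.362). The call in RMA late was lost without control 1, control 4, RMA late 1 or RMA late 2 (adjusted p up to 0.156), without a filter on low counts and with a replicate block (adjusted p up to 0.122). The call over the 7 groups was also lost with the block, and without control 4, RMA late 1 or RMA late 2. AC157548.1 was at 14.2, 22.2 and 20.4 in RMA intermediate against 4.06, 5.58, 5.15 and 2.85 in controls, above all of them without passing with edgeR (2.10 ± 0.60, adjusted p = 0.0688), while DESeq2 under either setting and edgeR with at least 10 counts in every library or with only the libraries compared called it. A stretch of 1588 bases of it is at least 98% identical to Tuba1b, which codes for tubulin, so that its reads are uncertain.

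The comparisons of tumor-bearing with control mice share the same 4 controls. In RMA intermediate, 6 members fell and 0 rose, 6 in all, where 0.386% of all genes tested were called lower, 1.26% higher and 1.65% in either direction. Among the tested genes at 5 CPM or more, 0.696% were lower and 2.27% higher. Of all 100 members, 31 lay below (10.5% of all genes tested) and 5 above (10.2%) all controls. A log2 fold change below 0 was found in 81 members, in 62.9% of all genes tested and in 51.3% of those at 5 CPM or more. The median log2 fold change of members was -0.65, beside -0.29 over all genes tested and -0.02 over those at 5 CPM or more. DESeq2 called 14 members (3.63% of all genes tested, 5.52% of those at 5 CPM or more), or 13 with betaPrior=TRUE (2.63% and 4.64%). In edgeR without a filter on low counts 4 were called, of which 3 were among the 6. Without RMA intermediate 3 the count of calls was 1 (Neat1, with 0.948% of all genes tested called), and without control 1, control 3 or RMA intermediate 1 it was 2 (Neat1 and Mirt1, with 1.13% to 1.24%). Without RMA intermediate 2 it was 4 (0.953%), and without the 4 libraries that stood apart it was 5 (1.22%), of which 4 were among the 6. In the same comparison 13 of 14 cell cycle genes and 5 of 14 interferon-stimulated genes rose, with the summed cell cycle level at 3992 to 6031 normalized CPM against 653 to 849.8 in controls. Immediate early transcripts summed to 5492 to 5916, below controls 1 to 3 (8129 to 9673) and above control 4 (1602). The part of these in the lincRNA values was not tested. The summed T cell markers were at 281 to 328 against 341 to 413 in controls, with Cd5, Cd4 and Cd8a at 0, and all 6 granulocyte markers were at 0.

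In RMA late, 3 members were called (1.79% of all genes tested), Neat1 and Mirt1 lower (0.368%) and Gm26623 higher (1.42%). Among the tested genes at 5 CPM or more, 0.665% were lower and 2.54% higher, so the share of members called was near that of these genes. The median of members was -0.43 beside -0.18 over all genes tested and -0.04 over those at 5 CPM or more. DESeq2 called 10 members (3.52% of all genes tested, 5.91% of those at 5 CPM or more), or 9 with betaPrior=TRUE (2.76% and 4.98%). Of the members, 21 lay below (8.81% of all genes tested) and 8 above (9.24%) all controls. The count of calls was 0 without RMA late 1 (0.836% of all genes tested) or without RMA late 2 (0.743%), and 1 without control 1 (1.21%). Of 14 genes each, 10 of the cell cycle and 6 interferon-stimulated genes rose. The summed T cell markers were at 466.2 to 594 normalized CPM, above all controls, and none of the 10 was at 0. The macrophage and monocyte markers summed to 33.1 to 50.7, above all controls at 8.72 to 18.3, with Adgre1, Cd14, C1qa and C1qb at 0. Immediate early transcripts summed to 5026 to 6557. The part of these in the lincRNA values was not tested.

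In RMA-KR late, 0 members were called by edgeR (0.983% of all genes tested, 0.719% higher and 0.263% lower), 16 had an unadjusted p under 0.05, as did 14.2% of all genes tested, and DESeq2 called 6 (2.68% of all genes tested, 3.90% of those at 5 CPM or more), or 4 with betaPrior=TRUE (1.88% and 3.33%). Of the members, 17 lay below (7.73% of all genes tested) and 6 above (5.88%) all controls, and the median was -0.28 beside -0.18 over all genes tested and -0.0057 over those at 5 CPM or more. The 8 macrophage and monocyte markers summed to 36.1 to 79.6 normalized CPM here against 8.72 to 18.3 in controls, with Csf1r, Adgre1, C1qa and C1qb at 0. Also above all controls were the T cell markers (414 to 504 against 341 to 413), of which Cd4 and Cd8a were at 0, and the B cell markers (407 to 583 against 241 to 404). The cell cycle genes summed to 2123 to 4321 against 653 to 849.8, with 7 of 14 called higher, and the interferon-stimulated genes to 528 to 824 against 343 to 506, with 1 of 14, Usp18, called higher. The part of these in the lincRNA values was not tested. In RMA-KR intermediate, 0 members were called (0.0175% of all genes tested, 0.0175% higher and 0% lower), 7 had an unadjusted p under 0.05 (5.90% of all genes tested), and DESeq2 called 1, Malat1, under either setting (0.14%, or 0.0877% with betaPrior=TRUE). Of the members, 6 lay below (1.29% of all genes tested) and 0 above (1.33%) all controls. The median was -0.18 beside 0.01 over all genes tested and 0.0060 over those at 5 CPM or more, and 68 members were below 0 (49.2% of all genes tested). The cell cycle genes summed to 876 to 2510 normalized CPM in this group, above all controls at 653 to 849.8, with 0 of 14 called. The part of this in the lincRNA values was not tested. Without the 4 libraries that stood apart, only libraries 1 and 2 of RMA-KR intermediate remained. There edgeR called 0 members and 0% of all genes tested, so this fit could not set members apart from other genes.

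At day 2 the medians of the members were -0.02 in RMA and 0.02 in RMA-KR, beside -0.06 and 0.0034 over all genes tested. In RMA early, 0 members were called by edgeR (0% of all genes tested), 7 had an unadjusted p under 0.05 (7.04%), and DESeq2 called 1, Pvt1 (0.351%), or 0 with betaPrior=TRUE (0.111%). Of the members, 6 lay below (4.94% of all genes tested) and 4 above (2.12%) all controls. In RMA-KR early, 0 were called (0.0819% of all genes tested), 8 had an unadjusted p under 0.05 (8.71%), and DESeq2 called 1, Gm26546 (0.866%), or 0 with betaPrior=TRUE (0.532%). Of the members, 5 lay below (6.01% of all genes tested) and 3 above (4.5%) all controls.

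**Figure D3:**
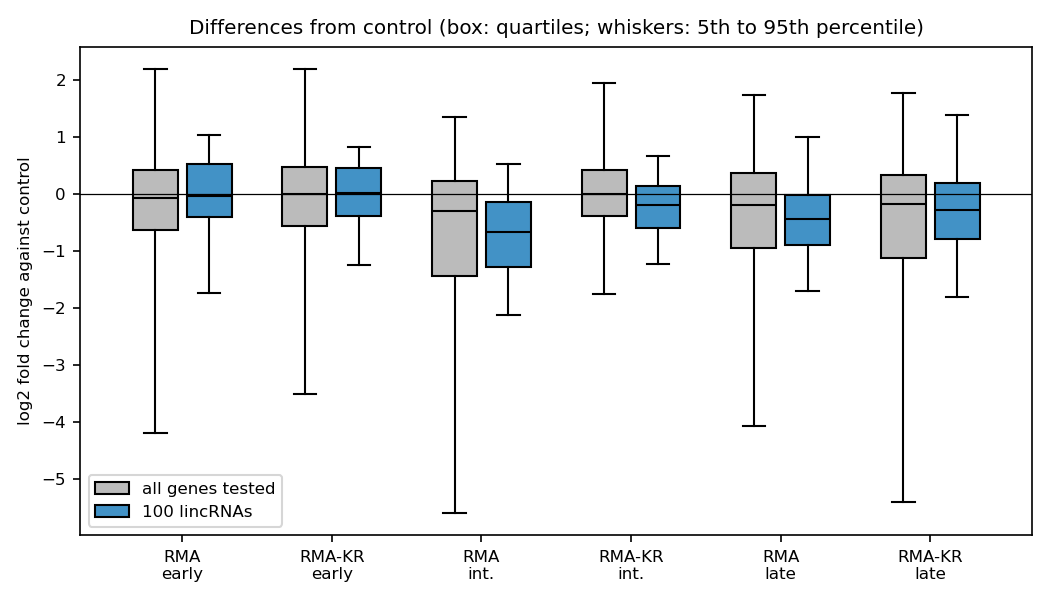
Log2 fold change against control (vertical axis) of all 17097 genes tested (gray) and of the 100 lincRNAs (blue) in the 6 tumor groups, with boxes for quartiles, a line for the median and whiskers from the 5th to the 95th percentile. The median of the lincRNAs is near 0 at the early stage and lies at -0.65 in RMA intermediate and -0.43 in RMA late.

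RMA and RMA-KR were also set against each other. At the early stage edgeR called 0 members (0.304% of all genes tested, 0.175% higher and 0.129% lower), 8 had an unadjusted p under 0.05 (12.3%), and DESeq2 called 2 (1.74%), or 1 with betaPrior=TRUE (1.06%). In RMA, 11 lay below (7.21% of all genes tested) and 5 above (5.56%) all RMA-KR libraries. Without RMA early 3 the count was 4, beside 1.28% of all genes tested and 2.12% of those at 5 CPM or more. At the intermediate stage 0 were called (0.503% of all genes tested, 0.48% higher and 0.0234% lower), 13 had an unadjusted p under 0.05 (14.2%), and DESeq2 called 5 (1.78%), or 3 with betaPrior=TRUE (1.02%). In RMA, 12 lay below (3.36% of all genes tested) and 2 above (5.82%) all RMA-KR libraries. At the late stage 0 were called by either tool (0% of all genes tested by edgeR, 0.246% by DESeq2 and 0.0585% with betaPrior=TRUE) and 5 had an unadjusted p under 0.05 (7.31%). In RMA, 2 lay below (3.95% of all genes tested) and 5 above (5.18%) all RMA-KR libraries. Gm26546, antisense to Gnptab, was at 37.5, 21.5 and 11.5 normalized CPM in RMA early and 0.0925, 1.68 and 2.89 in RMA-KR early (3.90 ± 0.96, adjusted p = 0.0831), a difference without overlap that did not pass with edgeR. It was called by DESeq2 under either setting, and by edgeR without a filter on low counts or without RMA early 3.

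Other abundant members were not called by edgeR over all 24 libraries in any comparison between groups, though without a filter AW112010 was called over the 7 groups. AW112010 was at 2431, 3238, 3112 and 2531 normalized CPM in controls, at 3867, 4158 and 3263 in RMA late and at 2348, 2313 and 2577 in RMA-KR late. RMA late lay above both other groups without passing the test against controls (0.41 ± 0.16, adjusted p = 0.223) or against RMA-KR late (0.64 ± 0.17, adjusted p = 0.655). 1700020I14Rik, the mouse Cyrano RNA that is known to bind miR-7, ranged from 135 to 273 over all 24 libraries, with log2 fold changes between -0.14 and 0.13 against control. 2900097C17Rik, the mouse Norad RNA that binds Pumilio proteins, had log2 fold changes between -0.10 and 0.20. Gm19585 was at 361, 319 and 199 in RMA late against 126, 208, 228 and 136 in controls (0.75 ± 0.25, adjusted p = 0.120), with overlap.

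Gm26917 and Gm28875 were split within RMA-KR intermediate. Gm26917 was at 884, 1804, 5339, 4753 and 5741 normalized CPM in libraries 1 to 5, with libraries 3 to 5 the highest. Gm28875 was at 961, 867, 337, 356 and 322, with libraries 3 to 5 the lowest. Libraries 3 to 5 are those with low immediate early transcripts, and the part of that in these values was not tested. In controls Gm26917 was at 6072, 2929, 3055 and 3606 and Gm28875 at 609, 728, 694 and 492. RMA-KR early, at 2070.0, 1877 and 1829 and 934, 1310.0 and 1136, was below controls in Gm26917 (-1.02 ± 0.42, adjusted p = 0.518) and above them in Gm28875 (0.84 ± 0.30, adjusted p = 0.436), with no overlap in either and neither passing. Without a filter on low counts edgeR called both over the 7 groups, and Gm26917 in RMA-KR early and between RMA and RMA-KR early. Without the 4 libraries that stood apart, both were called over the 7 groups, and Gm26917 was called between RMA and RMA-KR intermediate.

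**Figure D4:**
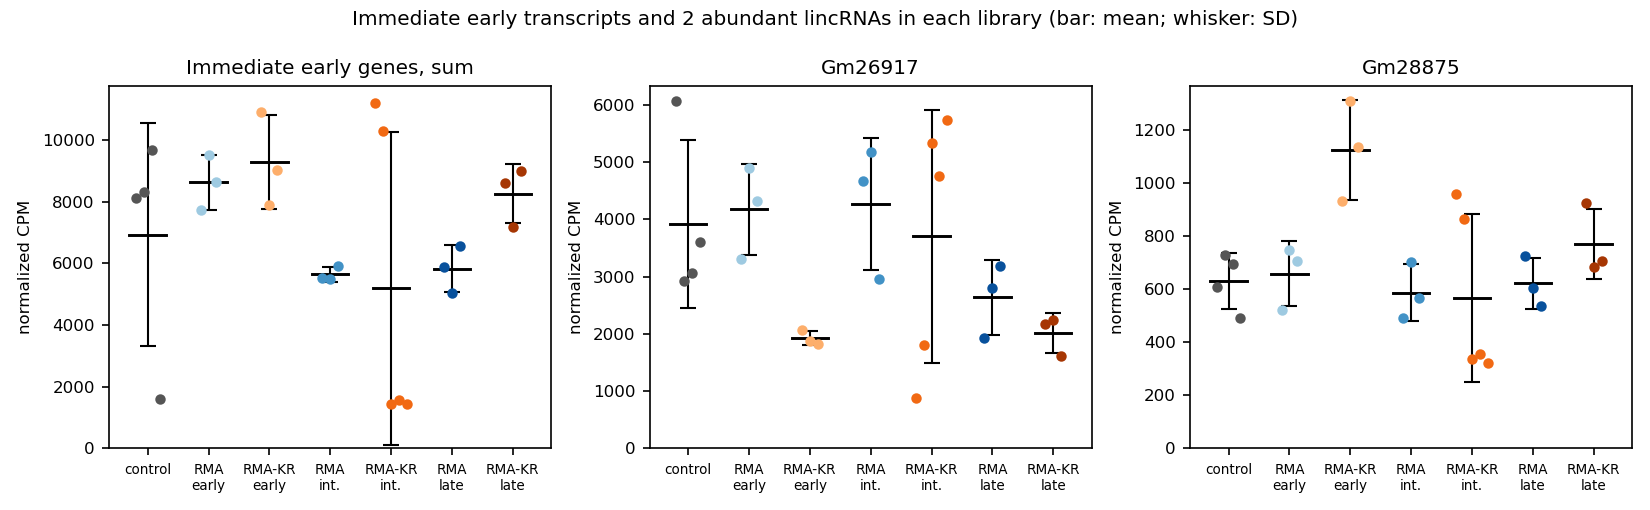
Summed normalized CPM of 14 immediate early genes and normalized CPM of Gm26917 and Gm28875 (vertical axes, from 0) in each library of the 7 groups, with bars for means and whiskers for SD. Control 4 and RMA-KR intermediate 3 to 5 are at 1446 to 1602 in the sum, and within RMA-KR intermediate libraries 3 to 5 sit above libraries 1 and 2 in Gm26917 and below them in Gm28875.

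Xist, the RNA that coats and silences the inactive X chromosome, was at 478, 241, 394 and 390.2 normalized CPM in controls, at 530.0, 587 and 586 in RMA early and at 776, 522 and 473 in RMA-KR early. RMA early lay above all controls (0.60 ± 0.30, adjusted p = 0.705) and RMA-KR early overlapped them (0.65 ± 0.30, adjusted p = 0.562). Over the 7 groups, DESeq2 with default settings called Xist, as did edgeR with at least 10 counts in every library or without a filter. There edgeR also called it without RMA intermediate 2 or without RMA-KR late 2. Xist shares exon bases with Tsix on the opposite strand. Ftx, an activator of Xist, was at 1.67, 6.16 and 4.23 in RMA intermediate against 20.1, 7.99, 24.4 and 12.5 in controls, below all of them without passing with edgeR (-2.01 ± 0.67, adjusted p = 0.141). It was called there by DESeq2 under either setting and by edgeR with at least 10 counts in every library or with only the libraries compared. Of 10 genes for partners of Xist, edgeR called 0 in any of the 9 comparisons between groups.

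Mir142hg, Mir155hg and Mir17hg, hosts of microRNAs printed above, were not called by edgeR over all 24 libraries in any comparison. Mir142hg was at 25.1, 23.1, 28.6 and 31.0 normalized CPM in controls, at 12.8, 13.5 and 8.46 in RMA intermediate and at 14.7, 8.69 and 15.8 in RMA-KR late, with no overlap in either (RMA intermediate -1.22 ± 0.36, adjusted p = 0.0806, RMA-KR late -1.05 ± 0.36, adjusted p = 0.200). DESeq2 with default settings called it in both, and with betaPrior=TRUE in RMA intermediate, where edgeR with at least 10 counts in every library or with only the libraries compared called it too. Mir155hg and Mir17hg were low and spread. Mir155hg ran from 1.69 to 13.6 in controls and from 0 to 20.3 in RMA early, and Mir17hg ran from 2.94 to 9.56 in controls and from 0.0701 to 34.1 in RMA-KR late. Log2 fold changes against controls were between -1.63 and 0.19 for Mir155hg and between -1.06 and 1.70 for Mir17hg.

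Members known for acting on a neighboring gene were set beside that neighbor. Pvt1, 47612 bases from the proto-oncogene Myc, was at 26.9, 20.9, 12.8 and 15.8 normalized CPM in controls, at 5.86, 3.39 and 7.12 in RMA early and at 6.42, 9.10 and 2.86 in RMA intermediate, both below all controls. Neither difference passed with edgeR (RMA early -1.81 ± 0.55, adjusted p = 0.521, RMA intermediate -1.64 ± 0.55, adjusted p = 0.139), while Myc rose in RMA intermediate (1.20 ± 0.22, adjusted p = 0.00416) and in RMA-KR late (1.13 ± 0.22, adjusted p = 0.0102), where Pvt1 overlapped controls (-1.08 ± 0.53, adjusted p = 0.357). In RMA late Myc was at 0.84 ± 0.22 (adjusted p = 0.0387), under the 2-fold limit, and Pvt1 at -0.90 ± 0.53 (adjusted p = 0.461). DESeq2 with default settings called Pvt1 in RMA early and RMA intermediate, and with betaPrior=TRUE in RMA intermediate, as did edgeR with at least 10 counts in every library. Lockd, which lies 3579 bases from the cell cycle inhibitor Cdkn1b, was at 12.7, 6.85 and 7.09 in RMA intermediate and 9.26, 15.3 and 9.22 in RMA late, above the controls at 3.13, 0.866, 2.94 and 2.94. These did not pass with edgeR either (RMA intermediate 1.84 ± 0.81, adjusted p = 0.283, RMA late 2.19 ± 0.81, adjusted p = 0.196), and Cdkn1b was at -1.20 ± 0.41 in RMA intermediate (adjusted p = 0.153). DESeq2 called Lockd in RMA late under either setting. Gm14005, the Morrbid RNA 15772 bases from the pro-apoptotic gene Bcl2l11, was at 23.6, 22.1 and 19.7 in RMA late against 9.40, 8.66, 16.9 and 5.88 in controls (1.09 ± 0.48, adjusted p = 0.302), and Bcl2l11 was at -0.21 ± 0.24 (adjusted p = 0.802).

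Lncpint, a target of p53, was at 4.66, 10.2 and 3.32 normalized CPM in RMA intermediate and 11.1, 1.54 and 1.92 in RMA-KR late against 22.9, 11.3, 28.6 and 19.5 in controls. Both lay below all controls without passing with edgeR (RMA intermediate -1.76 ± 0.73, adjusted p = 0.264, RMA-KR late -2.08 ± 0.74, adjusted p = 0.224). DESeq2 with default settings called Lncpint in RMA-KR late, and edgeR with only the libraries compared in RMA intermediate. Snhg6, which hosts Snord87, had log2 fold changes against controls between -0.14 and 0.96, and Dubr, known from myoblast differentiation, between -0.63 and 0.53, none called. Tmem250-ps was at 142, 78.7, 81.1, 105 and 138 in RMA-KR intermediate against 48.5, 57.2, 35.9 and 82.8 in controls, overlapping them (0.96 ± 0.30, adjusted p = 0.545). Over the 7 groups it was called by DESeq2 with default settings, and by edgeR with at least 10 counts in every library or without a filter. There edgeR also called it without control 4, RMA-KR early 3 or RMA-KR late 2.

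**Figure D5:**
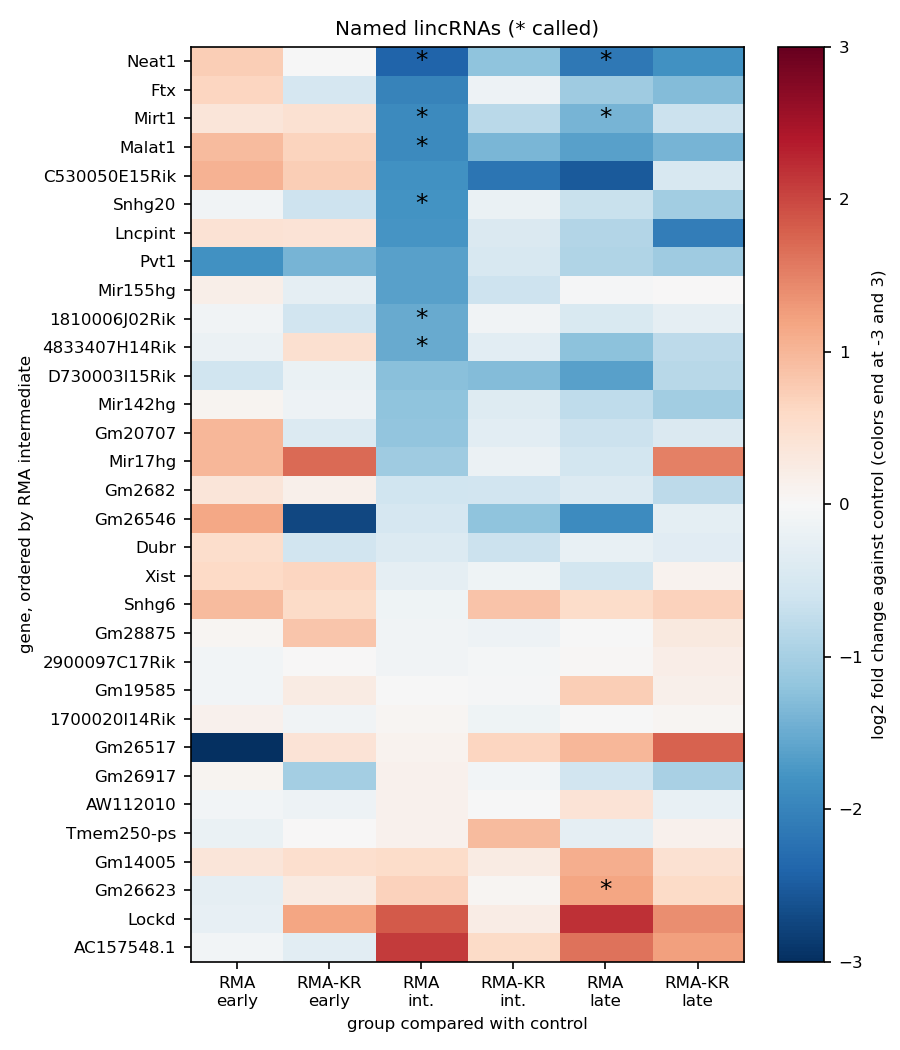
Log2 fold change against control (color, from blue for lower to red for higher, with colors ending at -3 and 3) of the 32 named members (rows, ordered by RMA intermediate) in the 6 tumor groups (columns), with a star where a member was called. The stars are the 6 falls in RMA intermediate and, in RMA late, the falls of Neat1 and Mirt1 and the rise of Gm26623.

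The lowest of the 7 group means fell in RMA intermediate for 36 members (22.4% of all genes tested) and in controls for 2 (7.28%). The highest fell in RMA early for 29 (19.7%) and in RMA intermediate for 2 (10.6%). In their genes, 43 members share exon bases with another gene on either strand, 34 of them with one on the opposite strand, and 44 lie within 5000 bases of a protein-coding gene, so that for these the annotation does not separate them fully from a neighbor.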

How the data were processed

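RNA was measured in NK cells sorted from spleen. Per the labels, libraries were made from polyA RNA. The authors trimmed reads with cutadapt 1.10, removed ribosomal reads with Bowtie2 2.2.8, aligned to mm10 with STAR 2.5.3a and counted with HTSeq 0.6.1p1 on Ensembl genes. The values used here are the deposited raw counts per gene, without normalization, for 45237 genes. The table has 112 columns, of which 24 count columns were used. Another 48 columns with 1 value a library, and those holding DESeq2 comparisons made by the authors (fold changes, p-values), were left out.

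Genes were filtered with filterByExpr on the 7 groups, scaled with TMM and fitted with 1 mean per group over all 24 libraries in edgeR 4.0.16 (R 4.3.3, limma 3.58.1), with robust quasi-likelihood tests (two-sided) and Benjamini-Hochberg adjustment over the 17097 genes tested. A member was called where the change exceeded 2-fold at an adjusted p under 0.05, or, over the 7 groups, by the adjusted p alone. Each standard error was taken as the size of the log2 fold change over the square root of F. DESeq2 1.42.0 was an alternative. Positions and overlaps come from GENCODE vM21, which matches the positions of all 100 members, and identities from a blastn search at 98% over 50 bases. Counts of 5138651 to 14863500 per library limit precision mainly for members near 5 CPM. No pair of libraries in a group agreed within sampling noise (chi-square per degree of freedom at least 19.4 in 31 pairs). The members and lists were chosen with earlier results of these data known. Named members are the 10 most abundant, the 10 with the smallest p over the 7 groups, the 5 highest and 5 lowest called in each comparison, those with a known role and the 3 nearest above the threshold. Alternatives were other scalings, filters and tools, a replicate block, only the libraries compared, each library left out, and, chosen after seeing the data, leaving out the 4 libraries with low immediate early transcripts.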

Additional observations from a re-analysis of the deposited data

Results flagged for a closer look

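In groups of 4 or 5 libraries, 64 sets of values of the named members were searched for a library far from the others, and 4 were found. Chance flags about 1 in 20 such groups. Mir17hg was at 9.88 normalized CPM in RMA-KR intermediate 2. 2900097C17Rik was at 65.6 in RMA-KR intermediate 1. Lockd was at 0.866 in control 2, and Gm20707 was at 12.6 in control 3. edgeR called none of these 4 members in any comparison.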

How the results depend on the processing

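Beside each count stands the percentage of all genes tested that the same fit called. Counts of members called over the 7 groups rose from 7 to 29 with DESeq2 (15.1%), 18 with at least 10 counts in every library (18.4%) and 19 without a filter (10.1%, and 19.7% of genes at 5 CPM or more). Under DESeq2's default settings the counts were 14 for RMA intermediate (3.63%), 10 for RMA late (3.52%), 6 for RMA-KR late (2.68%), 1 each for RMA early (0.351%), RMA-KR early (0.866%) and RMA-KR intermediate (0.14%), and 2 (early, 1.74%) and 5 (intermediate, 1.78%) for RMA against RMA-KR. With betaPrior=TRUE they were 13 for RMA intermediate (2.63%), 9 for RMA late (2.76%), 4 for RMA-KR late (1.88%), 1 for RMA-KR intermediate (0.0877%), and 1 (early, 1.06%) and 3 (intermediate, 1.02%) for RMA against RMA-KR. With at least 10 counts in every library, which kept 61 members of 7800 genes, they were 13 (4.62%), 6 (4.94%) and 2 (2.65%) for RMA intermediate, RMA late and RMA-KR late, and 2 (1.32%) for RMA against RMA-KR at the intermediate stage. Without a filter the RMA intermediate count went from 6 to 4 (1.05%, and 4.87% of genes at 5 CPM or more), with 1810006J02Rik, 4833407H14Rik and Snhg20 lost. In the rest of this fit, the second percentage is that of genes at 5 CPM or more. The counts were 5 for RMA late (1.04% and 4.80%) and 3 for RMA-KR intermediate (0.124% and 0.559%). They were 3 for RMA-KR late (0.871% and 3.84%) and 1 for RMA-KR early (0.243% and 1.09%). For RMA against RMA-KR they were 3 (early, 0.416% and 1.7%) and 1 (intermediate, 0.601% and 2.67%). With only the libraries compared they were 13 for RMA intermediate (4.34%) and 5 for RMA late (3.4%). Without the 4 libraries that stood apart, 1 was called between RMA and RMA-KR at the intermediate stage (0.415%). With 1 library left out at a time, counts ranged from 5 to 10 over the 7 groups (3.78% to 6.78%), 1 to 5 in RMA intermediate (0.948% to 1.42%), 0 to 4 in RMA late (0.743% to 2.66%), 0 to 1 in RMA early (0% to 0.602%) and in RMA-KR late (0.433% to 0.836%), and 0 to 4 for RMA against RMA-KR at the early stage (0.0585% to 1.28%). The cause of these shifts was not tested. Replicate numbers did not pair the libraries, since 1 of 27 correlations of same-numbered libraries was over 0.1 (range -0.118 to 0.129). With the replicate block the RMA late count was 1 (Neat1, 1.23%) and the RMA intermediate count was 4 (1.26%), with Malat1 and Snhg20 lost. Of 649 refits of selected differences, 0 changed direction, 47 lost a call and 42 gained one. The selected differences were those already called. Added to them were those with an unadjusted p under 0.05 among the 10 members with the smallest p over the 7 groups. Differences picked in this way could hardly change direction in refits of mostly the same libraries, so the 0 is no measure of their stability.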

Other observations

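Some members outside the naming rule, chosen here after their values were seen, also had low values in a group. Gm5165 was at 2.22, 1.402 and 3.08 normalized CPM in RMA-KR late against 14.8, 8.08, 31.1 and 12.8 in controls, without overlap (-2.90 ± 0.74, adjusted p = 0.0524, edgeR). RMA late was at 11.4, 12.7 and 7.76, above RMA-KR late (2.25 ± 0.74, adjusted p = 0.655). Gm10522 was below all controls in RMA intermediate (-1.82 ± 0.58, adjusted p = 0.119), RMA late (-1.70 ± 0.58, adjusted p = 0.139) and RMA-KR late (-1.61 ± 0.58, adjusted p = 0.232). Gm26637, which shares exon bases with the interferon-induced kinase gene Eif2ak2 on the opposite strand, was at 1.46, 0.617 and 0.396 in RMA early and 14.89, 26.0 and 3.21 in RMA-KR early (-4.14 ± 1.15, adjusted p = 0.140). 6720427I07Rik, the let-7 host, had log2 fold changes against controls between -2.19 and -0.81. None of these passed in edgeR over all 24 libraries. DESeq2's default settings called Gm5165 in RMA-KR late, Gm10522 in RMA intermediate and RMA late, and Gm26637 between the early groups. Without a filter on low counts edgeR called Gm5165 in RMA-KR late, Gm10522 in RMA intermediate and Gm26637 between the early groups, and with at least 10 counts in every library it called Gm5165 and Gm10522 in the same groups. Gm10522 was also called in RMA intermediate and RMA late with only the libraries compared and without the 4 libraries that stood apart.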
